A study of Mus musculus with 6 samples.

Results

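The 10 genes described here, of the IL-6, IL-10 and IL-12 cytokine axes, were followed across macrophages of 2 mouse adipose tissues during peritoneal seeding by ovarian cancer cells. They are the ligand genes Il6, Osm, Il10, Il12a, Il12b and Il27, the receptor genes Il6ra and Il10ra, the transcription factor gene Stat3 and the inhibitor gene Socs3. They were taken by symbol from the deposited table, which held all 10 of them among 23946 genes. All 10 were among the 13064 genes that reached 1 fragment per kilobase per 1000000 reads (FPKM) in at least 1 library, which are called expressed here.

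CD45+CD11b+F4/80+ cells were sorted from the omentum (OM) and from mesenteric adipose tissue (MY) of C57BL/6 mice. The naive libraries came from mice without tumor cells, and the other libraries from mice 24 h and 7 d after intraperitoneal injection of ID8, a mouse ovarian carcinoma line of the same strain. No engineered allele is named in the labels. The series' design text names 9 animals in 3 groups of 3, and the study's methods pool 3 omenta per tube. Each of the 6 conditions has 1 library. Differences therefore describe pairs of libraries, with no spread between replicates, no test and no p-value, and the order of close levels has no replicate check. A group injected with vehicle alone was not analysed here, so that the effects of injection and the ID8 cells cannot be told apart.

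Interleukin 6 and oncostatin M signal through receptors that share a signal-transducing chain, and interleukin 10 through a receptor of its own, and both routes activate the transcription factor STAT3. STAT3 induces Socs3, whose product blocks the shared chain of the IL-6 family but leaves the IL-10 receptor largely free. Interleukin 12 and interleukin 27 are built from pairs of subunits encoded by separate genes, so a single transcript says little about the amount of the pair. Macrophages are a known source of all of these ligands and also respond to most of them.

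The sort was checked against marker genes, and the libraries held RNA of other cells as well. The genes for the sorted antigens were present in every library, at 106 to 208 FPKM for Ptprc (CD45), 27.8 to 151 FPKM for Itgam (CD11b) and 20.5 to 135 FPKM for Emr1 (F4/80). The summed level of 10 macrophage markers was 13094 FPKM in OM 24h, against 1409 and 2394 in the other omental libraries and 1538 to 3523 in the mesenteric ones. The summed level of the 7 of 8 listed neutrophil markers found in the table lay between 7239 and 19257 FPKM in the omental and between 229 and 856 in the mesenteric libraries. For 7 mesothelial markers these ranges were 79.5 to 899 and 0.707 to 1.04 FPKM, and for 7 fibroblast markers 222 to 1194 and 2.34 to 3.55. T cell, NK cell and dendritic cell markers had higher sums in the mesenteric libraries, at 403 to 889, 594 to 1533 and 1064 to 1393 FPKM, against 24.96 to 101, 6.38 to 217 and 202 to 451 in the omental ones. The 6 B cell markers summed to 937 to 4093 FPKM in the omental and 563 to 1621 in the mesenteric libraries, with the lowest omental value at 24 h. Monocyte markers summed to 1158 to 1776 FPKM in the omental and 471 to 706 in the mesenteric libraries, and mast cell, eosinophil, endothelial and adipocyte markers to at most 63.1 FPKM in any library. Depth, judged from the smallest values, was between 0.859 and 1.49 times that of MY naive. The genes below are thus levels in a sorted population, in which fewer cells of a type and less RNA per cell cannot be told apart.

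**Figure D1:**
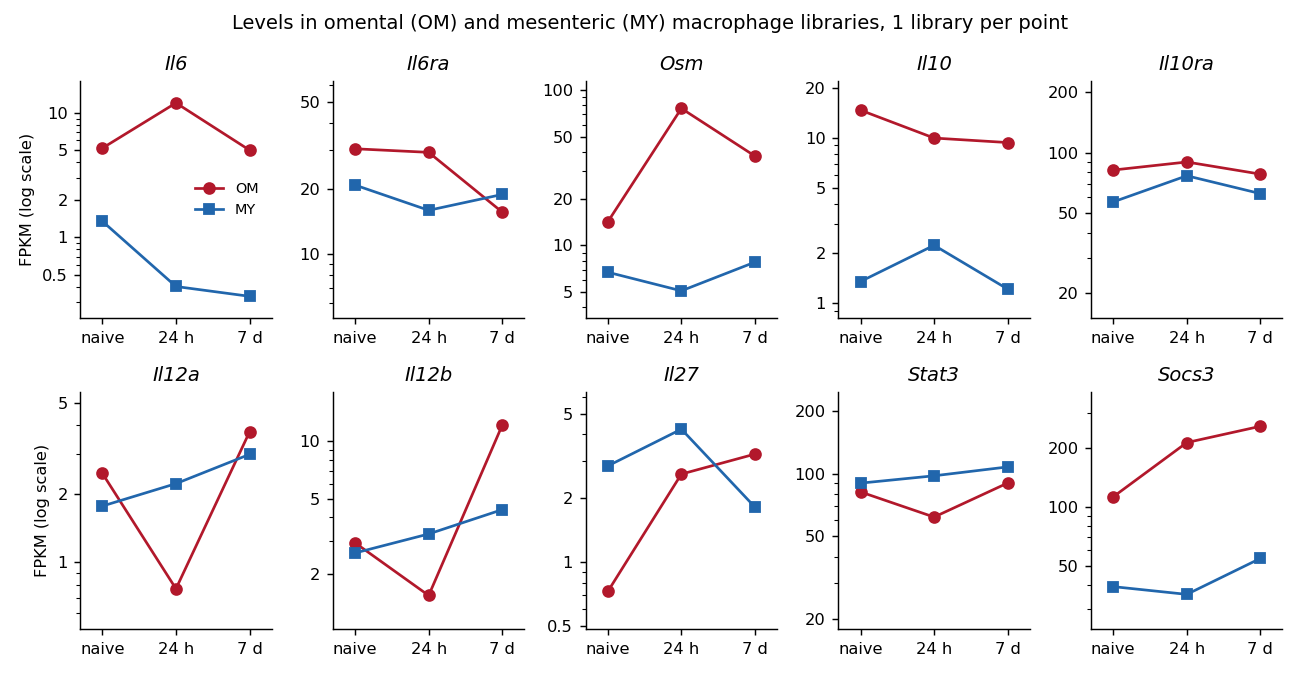
FPKM of each of the 10 genes on a logarithmic axis in the naive, 24 h and 7 d libraries of the omentum (red circles) and the mesentery (blue squares), with 1 library per point and lines joining the times of a tissue. Il6, Osm, Il10 and Socs3 lie well above the mesenteric line at all 3 times, while Stat3 and Il10ra differ by less than 2-fold between any 2 libraries.

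The widest ranges on the log2(FPKM + 1) scale were those of Osm, Il6, Il10 and Socs3, each wider than in 92.0% to 95.8% of expressed genes. The highest library exceeded the lowest by a ratio of 35.9 for Il6, 14.9 for Osm, 12.1 for Il10 and 7.19 for Socs3. The range was narrow for both receptor chains and for Stat3, with ratios of 1.95 for Il6ra, 1.74 for Stat3 and 1.58 for Il10ra. Il12b, Il27 and Il12a lay between, with ratios of 7.89, 5.81 and 4.87. In all omental libraries Il6, Osm, Il10, Il10ra and Socs3 were above all mesenteric ones, which is 5 of 10 genes, where 16.7% of expressed genes showed the same order. None of the 10 lay below in all omental libraries, an order shown by 17.7% of expressed genes. Stat3 missed that order narrowly, at 90.27 FPKM in OM 7d and 90.15 in MY naive. The separation was narrow for Il10ra, whose lowest omental level was 1.02 times its highest mesenteric one, and wide for Il10 and Il6, where this ratio was 4.18 and 3.73.

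Counted over the 10 genes, the changes of 2-fold or more after injection lay in the omentum, where more of all expressed genes rose as well. At 24 h 3 genes rose by at least 2-fold (Il6, Il27 and Osm) and none fell, where 11.9% of expressed genes rose and 6.45% fell. After scaling each library to a sum of 1000000 the 3 genes past 2-fold were Il27, Osm and Il12a, the last with a fall, and Il6 was not among them. At 7 d 4 rose (Il12b, Il27, Osm and Socs3) and none fell, against 11.0% and 1.96% of expressed genes. Both comparisons share the OM naive library. In the mesentery none of the 10 rose or fell at 24 h, where 2.8% and 1.52% of expressed genes did, or at 7 d, where 0.498% and 2.29% did. A count of none among 10 genes is near these shares. Both mesenteric comparisons share the MY naive library. Of the 53 expressed genes of the same pathways outside the 10, 8 rose and 5 fell in the omentum at 24 h and 6 rose at 7 d, while in the mesentery 4 rose at 24 h and 1 fell at 7 d. The median log2 difference of the 10 genes was 0.04 and 0.30 in the omentum and 0.17 and 0.16 in the mesentery at 24 h and 7 d, with all expressed genes between 0.00 and 0.02 in size.

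Between the tissues, most of the genes 2-fold apart were higher in the omentum. In naive mice 3 of the 10 were at least 2-fold higher in the omentum (Il6, Il10 and Socs3) and Il27 was lower, where 8.18% of expressed genes were higher and 8.05% lower. At 24 h 4 were higher (Il6, Il10, Osm and Socs3) and none lower, against 13.9% and 10.2% of expressed genes. At 7 d 5 were higher (Il6, Il10, Il12b, Osm and Socs3) and none lower, against 14.1% and 4.99%. The counts of genes 2-fold apart, 4, 4 and 5, became 2, 4 and 3 with a pseudocount of 5 and 4, 6 and 5 after scaling to a sum of 1000000, so no trend with time can be read from them. The median log2 difference of the 10 genes was 0.53, 0.53 and 0.94. Among those 53 other pathway genes, 10 were higher and 8 lower in naive mice, 10 and 15 at 24 h and 13 and 10 at 7 d, with medians of -0.01, -0.20 and -0.10. Scaling each library to a sum of 1000000 placed the median of all expressed genes at -0.17 in OM 24h and 0.12 in OM 7d against OM naive, and at -0.19 in naive mice and -0.27 at 24 h between the tissues, where it was within 0.01 of 0 as deposited. It turned the direction of no difference of 2-fold or more among the 10 genes.

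**Figure D2:**
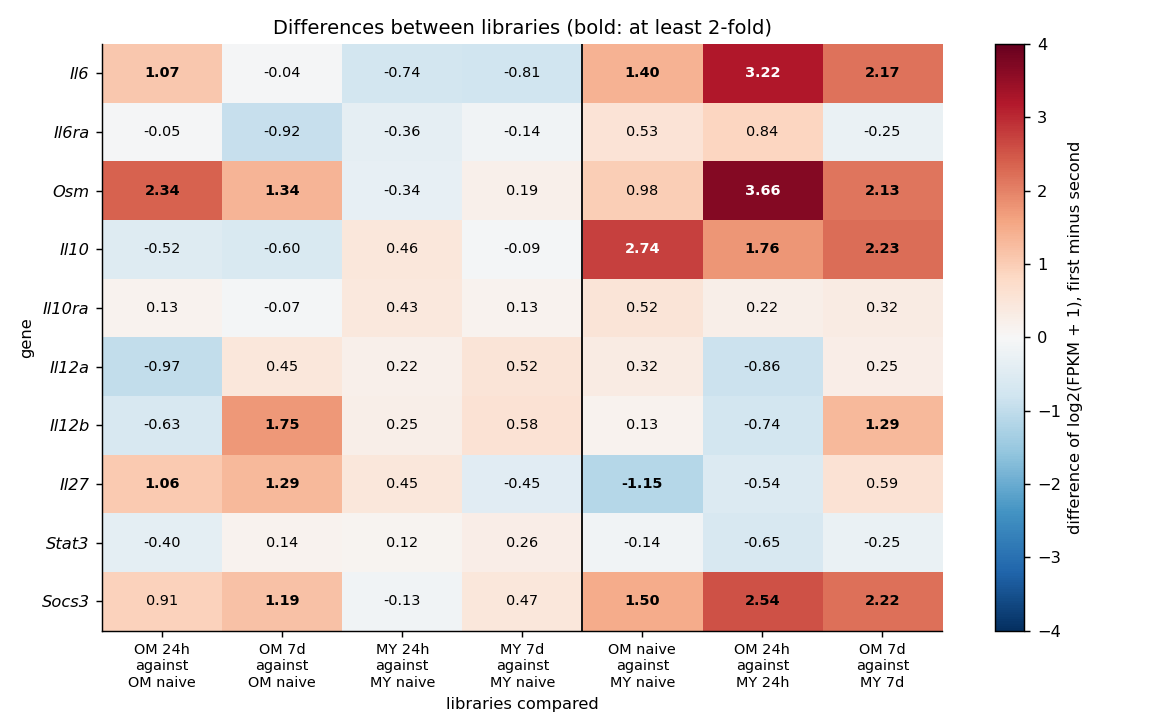
Differences of log2(FPKM + 1) of the 10 genes for the 7 pairs of libraries compared, the first named minus the second, with red for higher, blue for lower and bold for at least 2-fold. The largest is Osm in OM 24h against MY 24h at 3.66, and the columns for the mesentery over time hold no bold value.

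**Figure D3:**
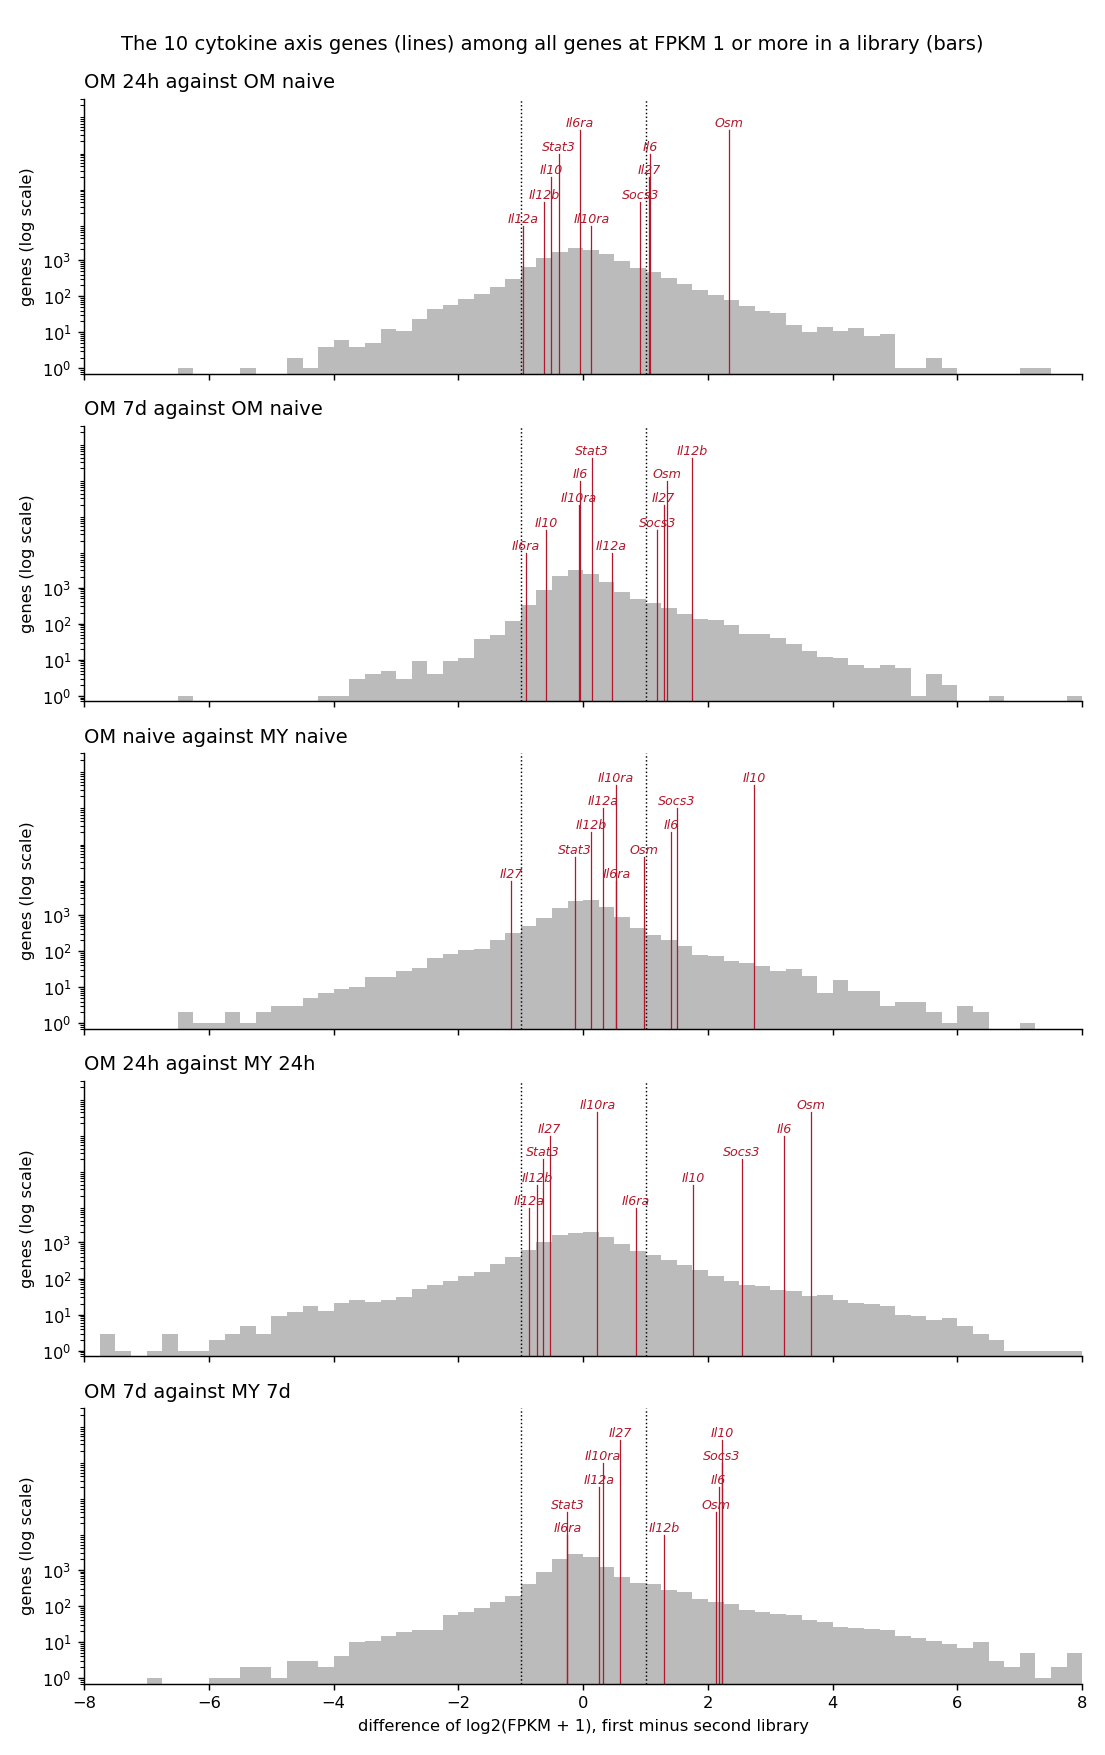
Number of expressed genes (gray bars, logarithmic axis) by difference of log2(FPKM + 1) for 5 of the pairs, with red lines at the 10 genes, dotted lines at 2-fold and differences beyond the axis not drawn. Most of the 10 lie within the bulk of genes at 24 h against OM naive, and Osm, Il6, Il10 and Socs3 lie to the right in the comparisons of the tissues after injection.

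Il6, the ligand that gives its family its name, stood at 5.21 FPKM in OM naive, 12.0 in OM 24h and 5.02 in OM 7d. In the mesentery it was at 1.34 FPKM in MY naive, 0.402 in MY 24h and 0.335 in MY 7d. In the omentum it was thus highest 1 day after injection and back near its naive value at 7 d, and no mesenteric library reached any omental one. On the log2(FPKM + 1) scale Il6 rose by 1.07 in the omentum at 24 h and differed by -0.04 at 7 d. The rise was just over 2-fold, and after scaling each library to a sum of 1000000 it was 0.93, and with a pseudocount of 5 it was 0.74, both under 2-fold. In the mesentery the differences were -0.74 at 24 h and -0.81 at 7 d, which count as a 2-fold fall with a pseudocount of 0.1 or after the same scaling but not otherwise. Between the tissues Il6 was higher in the omentum by 1.40 in naive mice, 3.22 at 24 h and 2.17 at 7 d.

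Il6 lies on chromosome 5, at chr5:30339701-30346508 on the forward strand of NCBIM37 (mm9), with 5 exons in its coding transcript. The 250 bases before its RefSeq start are shown because they hold a match to the NF-kB motif (GGGA, any 2 bases, TTCC), through which inflammatory signals are known to act on this gene. They span chr5:30012864-30013113, forward strand, in GRCm38.p6, and capitals mark the matches.
Il6: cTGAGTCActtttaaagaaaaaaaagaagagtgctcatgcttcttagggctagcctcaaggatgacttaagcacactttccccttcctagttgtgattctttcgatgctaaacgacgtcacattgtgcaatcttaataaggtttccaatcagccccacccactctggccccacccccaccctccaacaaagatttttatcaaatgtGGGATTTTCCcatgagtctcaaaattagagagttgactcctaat
The NF-kB match runs from 44 to 35 bases before the start and a match to the AP-1 motif TGANTCA from 249 to 243 bases before it. On either strand, the NF-kB letters were found in 1.21% and the AP-1 letters in 6.75% of the 32851 RefSeq windows of this length. The 2 motifs do not overlap here, and a match is a description of letters and not of binding.

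Osm encodes oncostatin M, a ligand of the same family made by myeloid cells. It reached 14.2 FPKM in OM naive, 76.2 in OM 24h and 37.6 in OM 7d, against 6.73, 5.11 and 7.82 in MY naive, MY 24h and MY 7d. Osm had the largest difference of the 10 genes after injection, in OM 24h, and the mesenteric libraries stayed close together. Its log2 value rose by 2.34 at 24 h and by 1.34 at 7 d, while the mesenteric differences were -0.34 and 0.19. The omental level exceeded the mesenteric one by 3.66 on the log2 scale at 24 h and by 2.13 at 7 d, and the naive libraries differed by 0.98, just under 2-fold. Osm was at 2.73 times the FPKM of Il6 in OM naive and at 6.33 and 7.49 times in OM 24h and OM 7d, where FPKM is scaled to transcript length and so can be compared between genes. At 7 d Osm had kept part of its rise while Il6 had returned to its naive level.

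All 7 mesothelial markers and 5 of 7 neutrophil markers were higher in every omental than in every mesenteric library. Most markers of both lists rose in the omentum after injection, as Osm did. The neutrophil markers Csf3r and Cxcr2 overlapped between the tissues. Csf3r was at 6.21, 24.1 and 9.36 FPKM in OM naive, OM 24h and OM 7d, and at 13.4 in MY 24h. Cxcr2 was at 5.14, 14.0 and 3.43 FPKM in these omental libraries, and its level in OM 7d was below every mesenteric one. Compared with OM naive, all 7 neutrophil markers had risen by 2-fold in OM 24h and 4 in OM 7d, and of the 7 mesothelial markers 6 and 7 had. Msln, the mesothelial gene for mesothelin, went from 5.27 FPKM in OM naive to 53.8 and 59.2, and was at 0.0150 to 0.128 FPKM in the mesenteric libraries. The macrophage markers rose too in OM 24h, 8 of 10 by 2-fold, and none did in OM 7d. The part of these cells in the levels of Il6, Osm and Socs3 was not tested.

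Among the other ligands of the IL-6 family, Ctf1, the gene for cardiotrophin 1, was higher in the omentum. It rose there from 0.817 FPKM in OM naive to 4.28 in OM 24h and 9.69 in OM 7d. In the mesentery it was at 0.0606 to 0.500 FPKM. The mesothelial markers were also higher in the omentum and most of them rose there. The part of mesothelial cells in the level of Ctf1 was not tested. Clcf1, another ligand of the family, had the opposite order of tissues, at 5.52 to 9.64 FPKM in the omental and 13.1 to 15.7 in the mesenteric libraries. Lif stayed between 0.275 and 1.32 FPKM in all libraries, and Il11, Cntf and Il31 did not reach 1 FPKM in any. Of the 7 expressed ligands of the family, 4 rose by 2-fold in the omentum at 24 h (Il6, Il27, Osm and Ctf1), against 11.9% of expressed genes. Their median log2 difference was 1.06 where that of all expressed genes was 0. At 7 d 3 of the 7 were higher, with a median of 0.56, against 11.0% of expressed genes. In the mesentery none of the 7 differed by 2-fold at either time. There 2.8% of expressed genes rose and 1.52% fell at 24 h, and 0.498% and 2.29% at 7 d. A count of none among 7 genes is near these shares.

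On the receptor side, Il6ra, the chain that binds interleukin 6, was at 30.5, 29.4 and 15.6 FPKM in OM naive, OM 24h and OM 7d, against 20.8, 15.9 and 18.8 in MY naive, MY 24h and MY 7d. The lowest library was OM 7d, below every mesenteric one, and the tissues overlapped. Its log2 difference from OM naive was -0.05 at 24 h and -0.92 at 7 d, short of 2-fold. Il6st, which encodes the shared signal-transducing chain, was at 22.0, 15.1 and 28.1 FPKM in the omental and 22.2, 26.8 and 29.3 in the mesenteric libraries. The ratio of Il6st to Il6ra was therefore 0.722 in OM naive, 0.514 in OM 24h and 1.80 in OM 7d, the lowest and the highest of the 6 libraries being omental. In the mesentery it was 1.07, 1.68 and 1.56.

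Of the receptors for the other ligands, Il11ra1, for interleukin 11, was 2-fold or more above OM naive at both times, at 9.08, 27.0 and 22.1 FPKM in the omental libraries, and also rose in the mesentery at 24 h, from 7.16 to 15.6 FPKM. Lifr, the receptor chain for leukemia inhibitory factor, was at 13.8 to 14.5 FPKM in the omentum at all times and at 0.927, 3.496 and 2.24 in the mesentery. Osmr, a receptor chain for oncostatin M, was at 0.680, 3.67 and 2.88 FPKM in the omental libraries and at 0.00849 to 0.162 FPKM in the mesenteric ones, so it rose in the same tissue as Osm. Lifr and Osmr are also used by stromal cells, whose markers in these libraries are given above, and the part of such cells was not tested.

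**Figure D4:**
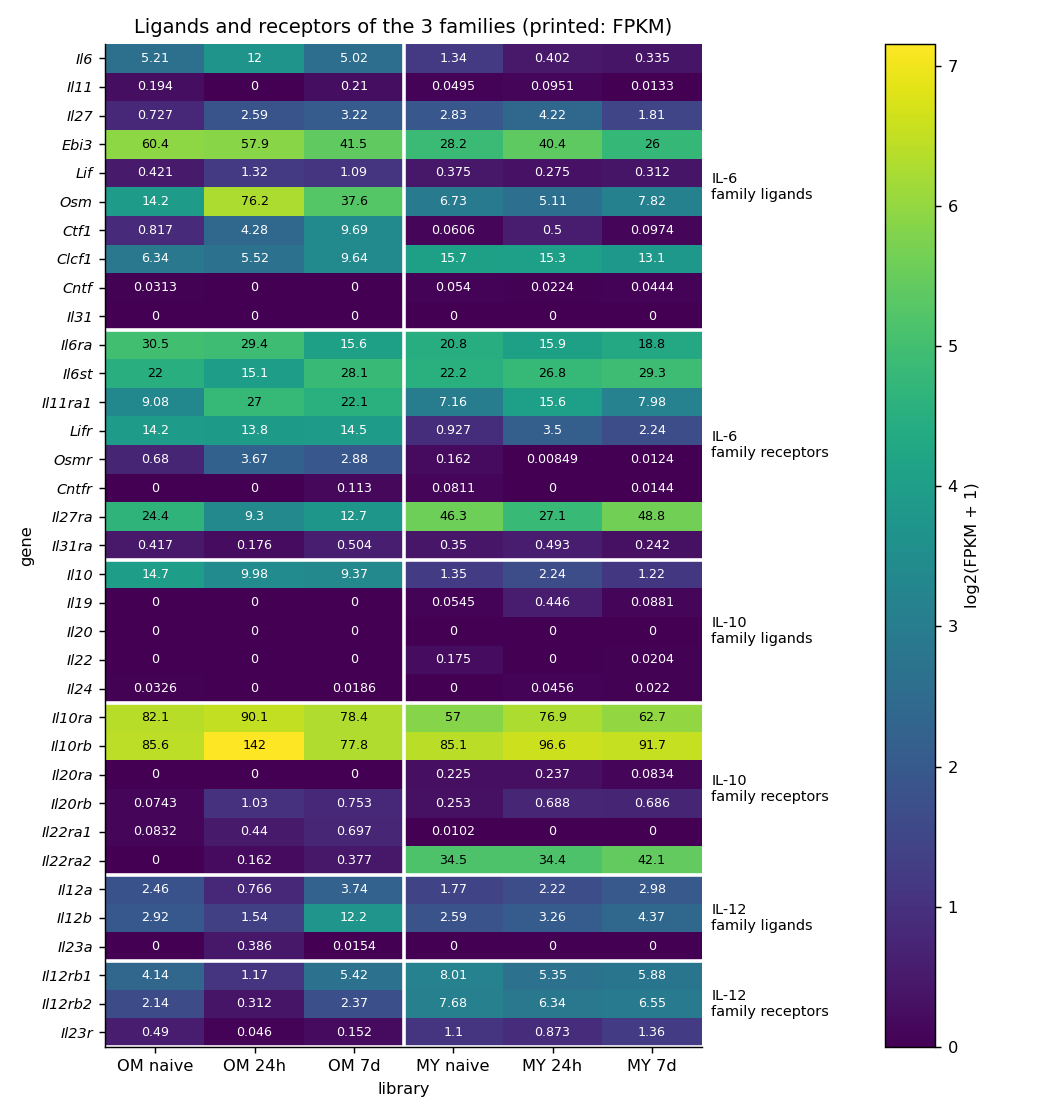
Ligand and receptor genes of the IL-6, IL-10 and IL-12 families in the 6 libraries, with color for log2(FPKM + 1) and the FPKM printed in each cell. Osm in OM 24h, Ebi3, Il10ra and Il10rb are among the bright cells, and Il22ra2 is bright in the mesenteric libraries alone.

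Il10, the gene for the anti-inflammatory ligand of the second axis, was at 14.7 FPKM in OM naive, 9.98 in OM 24h and 9.37 in OM 7d. The mesenteric libraries held 1.35, 2.24 and 1.22 FPKM in MY naive, MY 24h and MY 7d. All omental values lay far above all mesenteric ones, with the highest omental value in naive mice. The log2 difference between the tissues was 2.74 in naive mice, 1.76 at 24 h and 2.23 at 7 d, the first being the largest of the 10 genes before injection. After injection no difference reached 2-fold, with -0.52 and -0.60 in the omentum and 0.46 and -0.09 in the mesentery. Il10 thus differed between the tissues before any tumor cell was injected, whereas the gap in Osm was wider after injection. In naive mice all 6 B cell markers were also at least 2-fold higher in the omentum, against 8.18% of expressed genes. At 24 h and at 7 d 1 of the 6 was, against 13.9% and 14.1%. The part of B cells and of the other cells named above in the level of Il10 was not tested.

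Il10ra, which encodes the ligand-binding chain of the interleukin 10 receptor, was at 82.1, 90.1 and 78.4 FPKM in OM naive, OM 24h and OM 7d, against 56.98, 76.9 and 62.7 in MY naive, MY 24h and MY 7d. No pair of libraries compared here differed by 2-fold. Il10rb, the second chain, was at 85.6, 141.7 and 77.8 FPKM in the omentum and 85.1, 96.6 and 91.7 in the mesentery. Per length, the receptor exceeded its ligand in every library, by a ratio of Il10ra to Il10 of 5.58 to 9.02 in the omentum and 34.3 to 51.4 in the mesentery. Of the other ligands of this family, Il19, Il20, Il22 and Il24 did not reach 1 FPKM in any library. Il22ra2, which encodes a secreted receptor that binds and blocks interleukin 22, was at 34.5, 34.4 and 42.1 FPKM in the mesentery, at 0.162 and 0.377 in OM 24h and OM 7d, and listed at 0 in OM naive. Of 8 dendritic cell markers 5 had the same order of tissues as Il22ra2, 2 overlapped and Cd209a had the opposite order, at 82.0 to 264 FPKM in the omental and 11.8 to 15.3 in the mesenteric libraries. Their part in the level of Il22ra2 was not tested.

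The genes Il12a, Il12b and Il27 of the IL-12 family were at most at 12.2 FPKM. Il12b, which encodes the subunit shared by interleukins 12 and 23, was at 2.92, 1.54 and 12.2 FPKM in OM naive, OM 24h and OM 7d, against 2.59, 3.26 and 4.37 in MY naive, MY 24h and MY 7d. OM 7d was the highest and OM 24h the lowest of the 6, so that the tissues overlapped. Il12b rose by 1.75 on the log2 scale in the omentum at 7 d, the largest difference among the 10 genes at that time, after a difference of -0.63 at 24 h. In the mesentery it differed by 0.25 and 0.58. The omental library exceeded the mesenteric one by 1.29 at 7 d, with differences of 0.13 in naive mice and -0.74 at 24 h.

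Il12a, which encodes the partner subunit of interleukin 12, was at 2.46, 0.766 and 3.74 FPKM in OM naive, OM 24h and OM 7d, against 1.77, 2.22 and 2.98 in MY naive, MY 24h and MY 7d. The lowest and the highest library were again OM 24h and OM 7d, and no difference reached 2-fold with the pseudocount of 1, the nearest being -0.97 for OM 24h against OM naive. At these low levels the pseudocount decides the call, and the difference was -1.56 with a pseudocount of 0.1 and -1.26 after scaling to a sum of 1000000. For OM 24h against MY 24h the difference was -0.86, and -1.42 and -1.23 under these alternatives. The ratio of Il12b to Il12a was 1.46 to 1.47 in the mesenteric libraries and 1.19, 2.01 and 3.26 in OM naive, OM 24h and OM 7d. Il23a, the other partner of Il12b, reached 0.386 FPKM in OM 24h and 0.0154 in OM 7d and was listed at 0 in the other libraries.

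Il27, which encodes the alpha subunit of interleukin 27, was at 0.727, 2.59 and 3.22 FPKM in OM naive, OM 24h and OM 7d, against 2.83, 4.22 and 1.81 in MY naive, MY 24h and MY 7d. It was lowest in OM naive and highest in MY 24h, with overlap between the tissues. It rose in the omentum by 1.06 at 24 h and 1.29 at 7 d, and in naive mice it was the only one of the 10 genes lower in the omentum by 2-fold, with a log2 difference of -1.15. These differences rest on low levels and were under 2-fold with a pseudocount of 5. Ebi3, the gene for its partner subunit, was far higher than Il27 in all libraries, at 60.4, 57.9 and 41.5 FPKM in the omentum and 28.2, 40.4 and 26.0 in the mesentery. The ratio of Ebi3 to Il27 was 83.1 in OM naive and 9.57 to 22.3 in the other 5 libraries. Il27 overlaps Apobr on the opposite strand by 103 bases in the GENCODE M1 annotation, and whether the counting used strand is not given in the sources used here.

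Of the 4 receptor genes of the IL-12 family, 3 were lower in every omental than in every mesenteric library, and Il12rb1 overlapped. This order was shown by 17.7% of expressed genes. Il12rb2, the signalling chain for interleukin 12, was at 2.14, 0.312 and 2.37 FPKM in OM naive, OM 24h and OM 7d, against 6.34 to 7.68 in the mesentery. Il27ra, the receptor chain for interleukin 27, fell in the omentum from 24.4 FPKM to 9.30 at 24 h and was at 12.7 at 7 d, below the 27.1 to 48.8 of the mesenteric libraries. Compared with OM naive, 3 of the 4 were at least 2-fold lower at 24 h, against 6.45% of expressed genes, with a median log2 difference of -1.25. None of the 4 differed by 2-fold at 7 d, where 11.0% of expressed genes rose and 1.96% fell. Between the tissues 1 of 4 was lower in the omentum by 2-fold in naive mice, 3 at 24 h and 3 at 7 d, against 8.05%, 10.2% and 4.99% of expressed genes. T and NK cells are known to carry these receptors. All 6 NK cell markers and 5 of 6 T cell markers were at least 2-fold lower in OM 24h than in OM naive, and their summed levels there were 6.38 and 24.96 FPKM. In MY 7d against MY naive all 6 NK cell markers were also lower by 2-fold, while no T cell marker and none of the 4 receptors differed by 2-fold. In OM 7d against OM naive 3 of the 6 NK cell markers were lower, again with no T cell marker and none of the receptors. Il27ra came nearest there, with a log2 difference of -0.89. The part of these cells in the receptor levels was not tested.

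Stat3, the transcription factor on which the IL-6 and IL-10 routes meet, was at 81.8, 61.9 and 90.3 FPKM in OM naive, OM 24h and OM 7d, against 90.1, 97.8 and 107.9 in MY naive, MY 24h and MY 7d. The tissues overlapped, the lowest library was OM 24h, and no difference exceeded 0.65 on the log2 scale. Transcript levels of Stat3 do not measure the phosphorylated, active protein. Stat3 and Stat5a lie on opposite strands and share 72 bases in GENCODE M1, so that reads there may belong to either gene. The JAK and STAT genes as a list had lower medians in the omentum at all times. Of 13 genes, 2 were lower by 2-fold in naive mice, 6 at 24 h and 4 at 7 d, against 8.05%, 10.2% and 4.99% of expressed genes, with median log2 differences of -0.35, -0.65 and -0.58. Compared with OM naive, 1 of 13 was lower in OM 24h, against 6.45% of expressed genes, with a median of -0.61. The most different were Stat4, at 7.72 against 52.7 FPKM, Jak2, at 18.5 against 85.8, and Tyk2, at 20.8 against 65.8, in OM 24h against MY 24h. STAT4 carries the interleukin 12 signal in T and NK cells, whose markers were also lower in OM 24h. The part of these cells in the level of Stat4 was not tested.

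Socs3, the inhibitor that STAT3 induces, was at 112.1 FPKM in OM naive, 211.9 in OM 24h and 256.6 in OM 7d. The mesenteric libraries held 39.1, 35.7 and 54.4 FPKM in MY naive, MY 24h and MY 7d. The lowest omental value was above the highest mesenteric one by a ratio of 2.06, and OM 7d was the highest of all. Socs3 rose by 1.19 on the log2 scale in the omentum at 7 d, after a difference of 0.91 at 24 h, just short of 2-fold. In the mesentery it differed by -0.13 and 0.47. It was higher in the omentum by 1.50 in naive mice, 2.54 at 24 h and 2.22 at 7 d. The ratio of Socs3 to Stat3 was 1.37, 3.42 and 2.84 in the omental libraries and 0.365 to 0.505 in the mesenteric ones.

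Matches to the STAT motif TTCNNNGAA near both starts of Socs3 are shown, since STAT factors are known to induce the gene through such sites. Socs3 lies at chr11:117827393-117831361 on the reverse strand of NCBIM37. In that build its RefSeq start was found at base 117830680 of chromosome 11 by an exact match, 180 bases upstream of the start of the GENCODE coding transcript at base 117830500. The first sequence below is the 250 bases before the RefSeq start, at chr11:117969367-117969616, reverse strand, GRCm38.p6. The second is 29 bases around the match before the coding transcript, at chr11:117830543-117830571, reverse strand, NCBIM37. Capitals mark the motif in both.
Socs3, RefSeq window: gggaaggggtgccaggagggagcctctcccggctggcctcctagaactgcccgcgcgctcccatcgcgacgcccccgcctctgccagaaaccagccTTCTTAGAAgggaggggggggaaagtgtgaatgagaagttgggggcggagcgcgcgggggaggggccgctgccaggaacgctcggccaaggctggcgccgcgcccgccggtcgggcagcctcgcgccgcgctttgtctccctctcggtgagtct
Socs3, coding transcript: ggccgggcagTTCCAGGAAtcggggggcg
The matches lie 154 to 146 bases before the RefSeq start and 61 to 53 bases before the coding transcript. On either strand, 7.02% of all RefSeq windows held the motif. The RefSeq table had windows for 6 of the 10 genes, and those of Il6ra, Il12a, Il12b and Stat3 held no match to the 4 motifs searched, the fourth being the cAMP response motif TGACGTCA, found in 1.55% of windows. Il10, Il10ra, Il27 and Osm had no entry.

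The other inhibitors varied in their order of tissues. Socs1, which blocks JAK kinases, was at 52.4, 45.4 and 94.2 FPKM in OM naive, OM 24h and OM 7d, against 109.3, 92.9 and 83.0 in MY naive, MY 24h and MY 7d. The ratio of Socs3 to Socs1 was 2.14 to 4.67 in the omental and 0.357 to 0.656 in the mesenteric libraries. Socs2, an inhibitor of growth hormone signals, was at 4.54 to 10.6 FPKM in the omentum and 35.1 to 69.1 in the mesentery. Socs6 was, like Socs3, higher in every omental library, at 16.8, 24.3 and 11.6 FPKM in OM naive, OM 24h and OM 7d. The mesenteric libraries held 6.72 to 11.1 FPKM. Its separation was narrow, with 11.63 FPKM in OM 7d and 11.05 in MY 24h. OM 7d was the lowest omental library for Socs6 and the highest for Socs3. Of the 12 SOCS and PIAS genes, none differed by 2-fold in OM 24h against OM naive, where 11.9% of expressed genes rose and 6.45% fell. In OM 7d 2 were higher, Socs3 and Cish, and none lower, against 11.0% and 1.96% of expressed genes. The count of 2 among 12 genes is near that share. Cish went from 13.8 to 30.2 FPKM and was at 12.2 FPKM in MY 7d.

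Genes known as targets of STAT3 were counted as a list of 16, of which Socs3 is one. In naive mice 8 were at least 2-fold higher in the omentum and 1 was lower, with a median log2 difference of 0.68. At 24 h 7 were higher and 1 lower, and at 7 d 9 and 1, with medians of 0.88 and 1.12. Over all expressed genes these medians were 0.01, 0.00 and -0.01, with 8.18%, 13.9% and 14.1% higher and 8.05%, 10.2% and 4.99% lower. Etv3 was the lower gene each time. In all omental libraries 5 of the 16 were above all mesenteric ones and 3 below, against 16.7% and 17.7% of expressed genes, and 8 overlapped. Against OM naive, 5 were higher and 1 lower at 24 h, with a median of 0.36, where 11.9% and 6.45% of expressed genes were. At 7 d 3 were higher, with a median of 0.03, against 11.0% of expressed genes. Il1rn, the gene for the interleukin 1 receptor antagonist, had the course of Osm, at 11.0, 60.4 and 28.4 FPKM in the omental and 10.8 to 13.7 in the mesenteric libraries. Saa3, an acute phase gene, rose in both tissues at 24 h, from 194.1 to 742.6 FPKM in the omentum and from 14.6 to 169.0 in the mesentery, and Cebpb, for a transcription factor of the acute phase response, from 471 to 1305 and from 209 to 611. Myc fell in the omentum from 262.5 to 64.1 FPKM at 24 h. These targets also answer to other signals, and the list does not measure STAT3 activity.

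Another group of genes separated the tissues in the same way as Il6, Osm and Socs3. Immediate early genes are switched on within minutes by many stimuli and also by tissue dissociation. They were at least 2-fold higher in the omentum for 15 of 15 genes in naive mice, at 24 h and at 7 d. Their median log2 differences were 3.41, 3.11 and 3.34. Of all expressed genes 8.18%, 13.9% and 14.1% were higher. The summed level of the immediate early genes was 5352 to 8540 FPKM in the omental and 714 to 817 in the mesenteric libraries. Fos alone was at 729.8, 1714.6 and 1129.4 FPKM in OM naive, OM 24h and OM 7d, and at 6.37 to 9.52 in the mesentery. Junb is on this list and among the STAT3 targets. Within the omentum 2 of the 15 were higher and 2 lower at 24 h, against 11.9% and 6.45% of expressed genes. At 7 d 1 was higher and 2 lower, against 11.0% and 1.96%. Il6 and Socs3 are also quickly inducible genes, and the part of tissue handling in their levels and in that of Il10 was not tested.

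**Figure D5:**
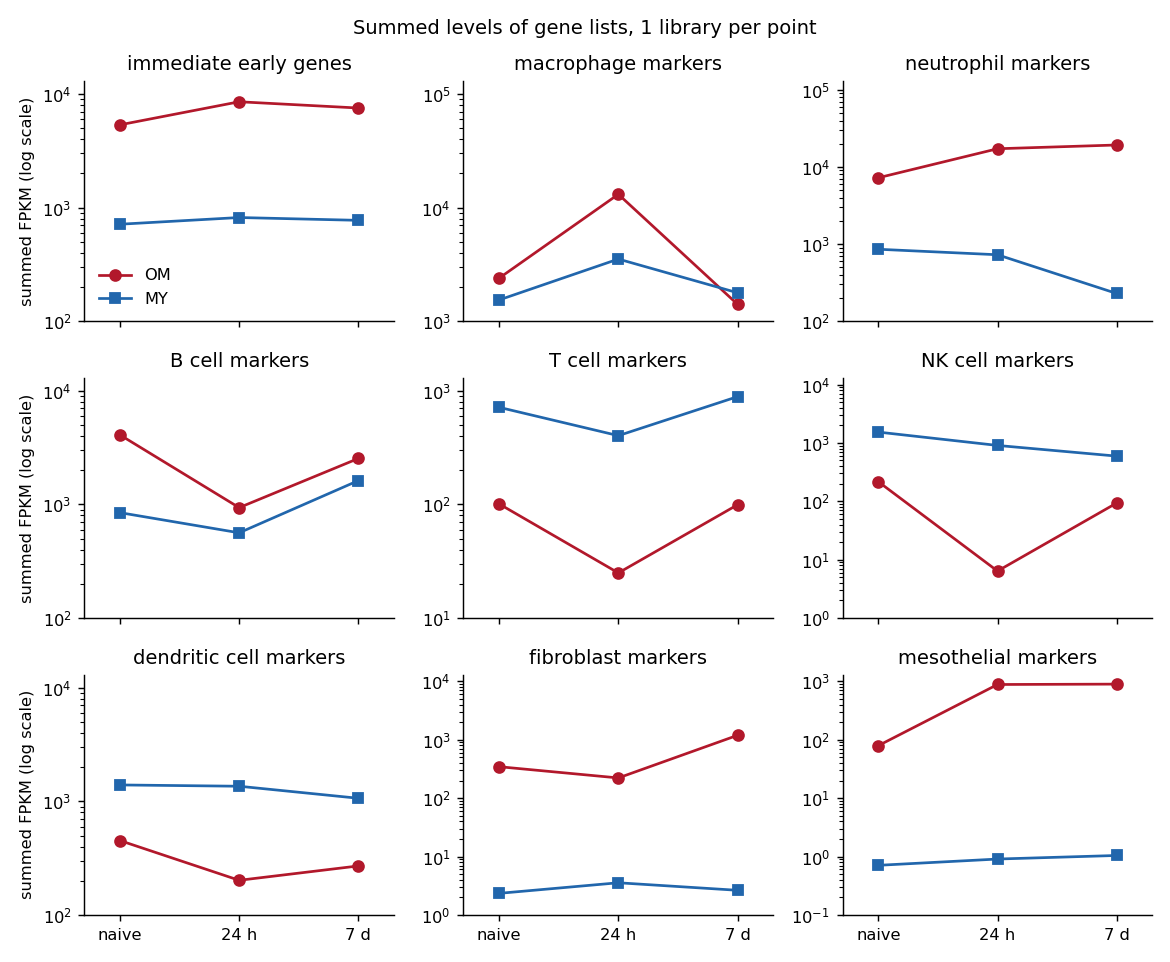
Summed FPKM, on logarithmic axes, of the immediate early genes and of 8 lists of cell type markers in the omental (red circles) and mesenteric (blue squares) libraries at each time. Immediate early, neutrophil, fibroblast and mesothelial lists lie higher in all 3 omental libraries, and T cell, NK cell and dendritic cell lists lie higher in all 3 mesenteric ones.

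For 5 of the 10 genes the pattern over the 6 libraries was compared with that of 9943 genes at 5 FPKM or more in a library, by the root mean square difference of centered log2(FPKM + 1) values. The others were too low or too even to be searched. Nearest to Il6 were Rhob, a small GTPase gene, at 0.204, Tnfsf9, a ligand gene of the TNF family, at 0.257, and AI839979 at 0.262. Nearest to Osm were Clec5a, a myeloid lectin receptor gene, at 0.210, Sfrp4 at 0.227 and Ch25h, for cholesterol 25-hydroxylase, at 0.235. Ch25h was at 0.633, 8.07 and 3.66 FPKM in OM naive, OM 24h and OM 7d. Nearest to Il10 were Fgfr1 at 0.184, Ahnak at 0.187 and Kcne3 at 0.203. Nearest to Socs3 were 1810055G02Rik at 0.0750, Dag1, which encodes dystroglycan, at 0.0833 and Lamc1, a laminin chain gene, at 0.115. For Il12b the closest, Stmn2 at 0.269, Gm4980 at 0.337 and Il17re at 0.349, were less alike. With 6 libraries many genes can have a close pattern, and likeness is given as a description.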

How the data were processed

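RNA of sorted CD45+CD11b+F4/80+ cells was sequenced in 6 libraries, 1 per tissue and time. The authors checked reads with FastQC 0.11.4, aligned them with STAR 2.4.2a (mm9, UCSC annotation) and deposited FPKM for each gene symbol, computed with Cufflinks. FPKM hold no counts, so no count test was possible. The study's methods give the reads per sample as a range over all samples, so the number for each library is not known here. With 1 library per condition, no test between conditions was made. The relative depth came from the commonest ratio of values below 0.1 FPKM.

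Differences of log2(FPKM + 1), a scale that shrinks changes of low genes, were computed with Python 3.11.15, numpy 2.4.6 and pandas 2.3.3, and called at 2-fold. Figures were drawn with matplotlib 3.10.9. The scripts were tested on simulated data. Positions came from NCBIM37 with GENCODE M1 and promoter windows from RefSeq (GRCm38.p6). No coordinates were converted between builds.

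The 10 genes and all lists were chosen with earlier results of these data known. All 10 genes are given. Of the pathway lists, up to 3 genes per direction and comparison were named among those at least 2-fold apart at 5 FPKM or more. Partner subunits, Lif, Osmr, Socs1, Il23a and low family members were named for their role after their values were seen, as were Fos, Msln, Cd209a, Csf3r and Cxcr2. For patterns, the 3 nearest genes were named. Alternatives were pseudocounts of 0.1 and 5, a 3-fold limit, 2 scalings and leaving out a library.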

Additional observations from a re-analysis of the deposited data

Results flagged for a closer look

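The change of Il6 at 24 h had opposite signs in the tissues. On the log2(FPKM + 1) scale it was 1.07 in the omentum, from 5.21 to 12.0 FPKM, and -0.74 in the mesentery, from 1.34 to 0.402 FPKM, which is a difference of 1.81 between the changes. Each change was at least 1.5-fold, each rests on 1 pair of libraries, and the difference was not tested.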

How the results depend on the processing

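Of 280 recomputed log2 differences of the 10 genes, 258 moved by less than 1.5-fold, 22 by more (10 with a pseudocount of 0.1 and 12 with one of 5) and no difference of 2-fold or more changed sign. The count of the 10 genes at least 2-fold apart changed by over 1.5 times as follows. With a pseudocount of 5 it was 1 (Osm) for OM 24h against OM naive, 2 (Il10 and Socs3) for the naive tissues and 3 (Il10, Osm and Socs3) for the tissues at 7 d. With a 3-fold limit it was 1 for OM 24h (Osm) and 1 for OM 7d (Il12b) against OM naive and 1 (Il10) for the naive tissues. In the mesentery it was 1 (Il6) at 24 h and at 7 d, both with a pseudocount of 0.1 and after scaling to a sum of 1000000. The other pathway genes numbered 13, 6, 4 and 1 over time (OM 24h, OM 7d, MY 24h, MY 7d) and 18, 25 and 23 between the tissues. With a pseudocount of 5 these became 7, 3, 2 and 0 over time and 11 in naive mice, with a pseudocount of 0.1 they became 10 in OM 7d, 7 in MY 24h and 4 in MY 7d, and with a 3-fold limit 3, 1, 1 and 0 over time and 8, 14 and 13 between the tissues. Genes higher in all omental than in all mesenteric libraries numbered 5, with 4 after scaling to a sum of 1000000 (without Il10ra) and 6 without OM 7d (with Il6ra). The labels carry no replicate numbers, so no replicate block was fitted, and the tissues were set side by side at each time as single pairs of libraries without a test. Values of a few FPKM rest on few reads, and with pooled animals the spread between mice is unknown.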
